A study of Mus musculus with 16 samples.

Results

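The proteasome genes of Hepa1-6 cells, a mouse hepatoma line, were followed through RNA-seq and ribosome profiling (Ribo-seq) of the same lysates. Members were the genes whose symbol starts with Psma, Psmb, Psmc, Psmd, Psme, Psmf or Psmg and a digit, each read from the transcript with the most counts, which gave 50 of the 22392 genes in the table. Wild-type (WT) cells were compared with 3 lines, KO1, KO2 and KO3, from which exon 5 of Eef1d, a subunit of a translation elongation factor complex, had been deleted on both alleles with Cas9. Each line had 2 replicates, each with an RNA-seq and a Ribo-seq library, so 16 libraries were used. KO1 and KO2 were made with the same pair of guide RNAs and KO3 with another pair, and each of the 3 lines is a single-cell clone. A difference between a clone and WT cells therefore cannot be told apart from a difference that arose while that clone was made, and all 3 comparisons share the WT libraries. With 1 transcript kept per gene, the RNA-seq libraries held 10493029 to 12946815 counts and the Ribo-seq libraries 1138944 to 4886757. The Ribo-seq library of KO1 replicate 2 was the shallowest. The labels call the RNA polyA RNA while the methods describe rRNA depletion, which was not settled from the counts.

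The proteasome degrades proteins that carry ubiquitin chains. Its core particle is a barrel of stacked rings, outer alpha rings (Psma genes) that gate the entrance and inner beta rings (Psmb genes) that hold the proteolytic sites. A cap opens the barrel: the base of the cap has a ring of ATPases (Psmc genes) that unfold the substrate, with Psmd1, Psmd2 and Psmd4 as scaffold and ubiquitin receptors, and the lid (other Psmd genes) includes Psmd14, which cuts the ubiquitin chain off. The Psme genes encode alternative caps, Psmf1 an inhibitor, and the Psmg genes with Psmd5, Psmd9 and Psmd10 the chaperones that put the complex together. Psmb8, Psmb9 and Psmb10 encode inducible catalytic subunits that replace Psmb5, Psmb6 and Psmb7 in the immunoproteasome, which interferon is known to raise. Within the alpha ring, the beta ring, the ATPase ring or the lid of an assembled particle, the constitutive subunits stand in equal numbers. No such equality is assumed here between the core and the cap. How cells supply subunits in proportion is a standing question for large complexes.

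The list held 7 alpha and 7 beta subunits, 6 ATPases, 3 other base subunits, 8 lid subunits, 3 inducible subunits, 6 regulators and 7 assembly factors. Adrm1 of the base and Sem1 of the lid have other symbols. The rule leaves them out of these groups, and they were read with the partners below. Psmc3ip, a meiotic recombination factor, matched the symbol rule without being a subunit and was kept only in the counts over all members. Psma8 of the testis and Psmb11 of the thymus had 0 counts in every library, where a count of 0 allows at most 0.238 to 0.282 CPM in an RNA-seq library and 0.608 to 2.56 CPM in a Ribo-seq library (3 counts, counting error only). CPM are counts relative to the library total, scaled by TMM, a normalization that sets aside the most divergent genes. The other 48 members had counts and passed the filter on low counts in every comparison. The exon 5 transcript of Eef1d had 116% of the counts of the transcript without it in both WT RNA-seq libraries and 89.8% to 92.6% in the 6 clone libraries. The table counts a read on each transcript that it fits, so these shares separate the lines in the direction of the labels without measuring exon 5 alone. Among 12 hepatocyte markers, albumin (Alb) was the most abundant in WT RNA, with 784 and 743 CPM. These markers summed to 2677 and 2501 CPM in WT. The sum was lowest in KO1, with 1052 and 1042 CPM, and highest in KO3, with 3624 and 3800, while KO2 had 2100 and 1986. The KO3 sum was carried by Alb, with 1759 and 1883 CPM, and Afp, with 1107 and 1160, while Apob, Fgb, Trf, Hnf4a and Foxa2 fell there. In bulk samples, a different share of cells and a different amount of RNA per cell cannot be told apart. The 8 leukocyte markers summed to 5.47 to 22.5 CPM in the RNA-seq libraries. Of the 7 fibroblast markers, Dcn had 708 to 1099 CPM and made up nearly the whole sum.

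To compare levels between genes, CPM were expressed per 1000 codons counted, which gives a density. In WT cells the core particle stood above the cap. The median log2 footprint density was 10.07 over the alpha subunits and 10.52 over the beta subunits, against 8.94 over the ATPases, 8.69 over the other base subunits and 9.29 over the lid. RNA density ran in nearly the same order, with medians of 9.496, 9.94, 8.65, 8.90 and 8.94. The median footprint density of the 14 core subunits was 2.88 and 2.68 times that of the ATPases in the 2 WT lysates, and their median RNA density was 2.14 and 2.11 times that of the ATPases. In the 6 clone lysates the footprint ratio stayed between 2.74 and 2.88 while the RNA ratio ran from 1.87 to 2.50. The ratio of the core to the lid went the other way, with 2.00 to 2.76 in footprints of the clones and 1.69 to 1.92 in RNA. The alpha ring lay below the beta ring in every library, at 0.572 to 0.799 of its median in footprints and 0.603 to 0.840 in RNA.

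**Figure D1:**
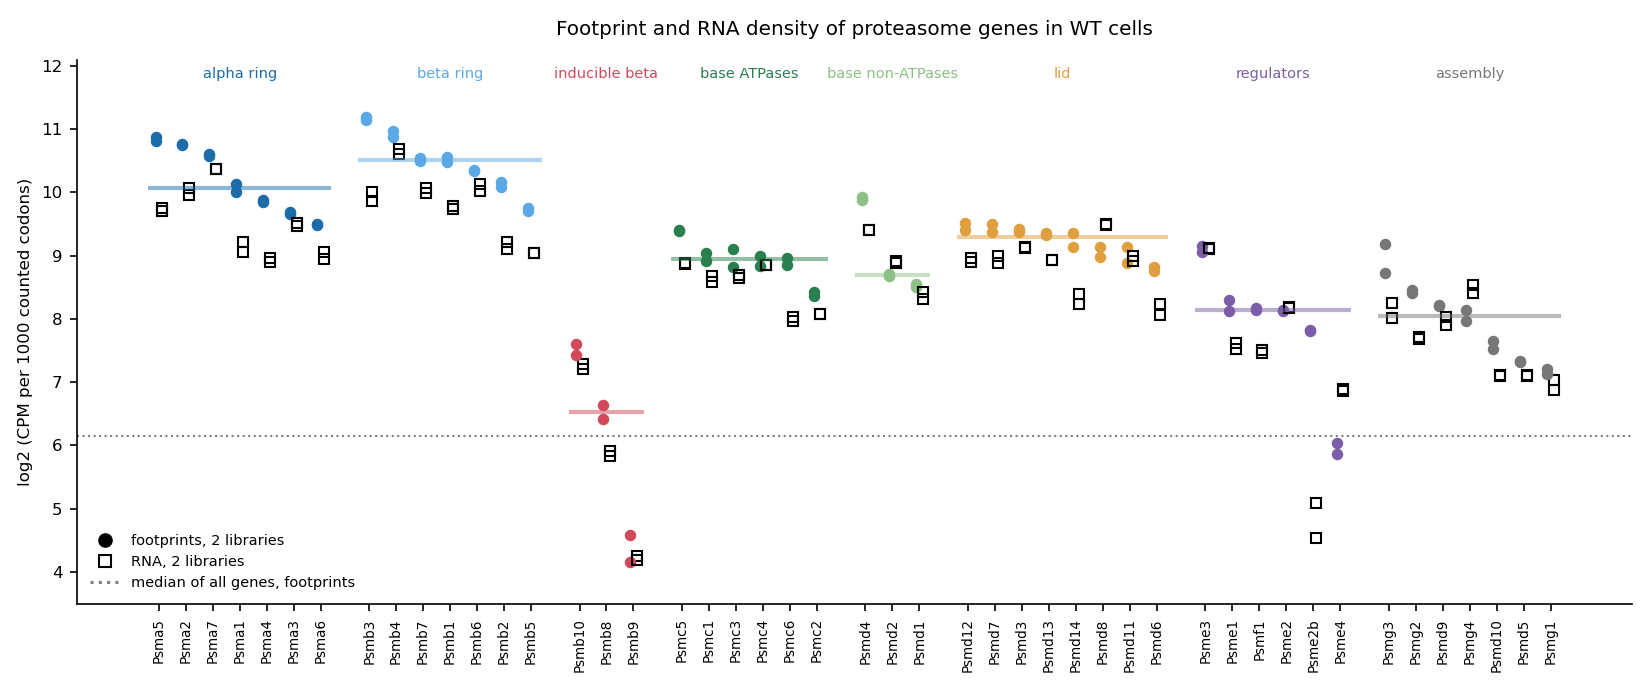
Footprint density (filled circles) and RNA density (open squares) of each proteasome gene in the 2 WT lysates, as log2 CPM per 1000 counted codons, with a bar at the median footprint density of each group and a dotted line at the median footprint density of 9613 genes (6.16). The alpha and beta rings lie above the ATPases and the lid, and the footprint points of the lid sit closer together than its RNA points.

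Translation efficiency (TE), here the log2 ratio of footprint to RNA density, was higher for these genes than for the typical gene. It exceeded the median of 9613 genes, −0.14, for 29 of the 31 constitutive subunits of the core, base and lid found by the rule. All 14 core subunits were among them, and the median over the 31 subunits was 0.49. Short coding sequences had higher TE in these libraries, with a Spearman correlation across genes of −0.42 between TE and counted codons over the 9613 genes and −0.53 over the 31 subunits, and the 14 core genes have only 192 to 268 counted codons. The genes of a correlation share their libraries and are not independent replicates. The part of coding length in the TE of the core genes was not tested.

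Within the core, Psmb3, a structural beta subunit, had the highest footprint density of all members, 2295 ± 61.8 CPM per 1000 codons (SD, n = 2), with an RNA density of 980 ± 68.2. Its TE of 1.23 was also the highest of the constitutive subunits. Psma5 led the alpha ring with 1838 ± 45.0 in footprints, 849 ± 23.4 in RNA and a TE of 1.11. Of the 30-base windows of Psmb3 83.9% have an exact copy elsewhere in the genome, and 91.2% of those of Psma5, 92.0% of those of Psma3 and 78.0% of those of Psmb5 do. The levels and TE of these genes depend on how reads that fit several places were handled. The methods speak of uniquely mapped reads, but how the counting step treated a read that fits several places is not given in the sources used here. Lowest in footprints were Psma6 in the alpha ring, with 723 ± 6.52, and Psmb5, which carries the chymotrypsin-like site, in the beta ring, with 847 ± 21.1. Psma3, with the lowest TE of the alpha ring at 0.18, and Psmb6, with the lowest of the beta ring at 0.27, had RNA densities of 722 ± 18.4 and 1081 ± 51.2, well inside the range of their rings.

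The ATPases spanned a narrower range. Psmc5 had the highest footprint density of the 6, 675 ± 5.78, and Psmc2 the lowest, 337 ± 9.68. Psmc6 reached a footprint density of 483 ± 25.8 from the lowest RNA density of the ring, 256 ± 7.14, with a TE of 0.92, and Psmc4 reached 485 ± 37.5 from an RNA density of 463 ± 0.897, with a TE of 0.06. The 2 genes thus had footprint densities that differed by less than the spread between replicates, although their RNA densities did not overlap. In the base beside them, the ubiquitin receptor Psmd4 stood highest at 953 ± 20.9 in footprints, and the scaffolds Psmd1 and Psmd2 had 369 ± 10.7 and 414 ± 8.01. Psmd2 had a TE of −0.21, below the median of all genes. Of its 30-base windows 46.7% have a copy elsewhere in the genome, so its values carry the same limit as those of Psmb3.

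In the lid, RNA and footprints gave different orders. Psmd8 had the highest RNA density of the 8 lid genes, 717 ± 6.73, and the lowest TE, −0.43. Psmd14, the deubiquitinase, had an RNA density of 319 ± 23.9 and the highest TE, 0.93. In footprints they came to 534 ± 43.5 and 608 ± 63.1. Psmd6 had the lowest RNA density, 283 ± 24.7, and the lowest footprint density, 441 ± 12.97, and Psmd12 had the highest footprint density, 703 ± 36.3. Psmd8 RNA stood at 147% and 146% of the lid median in the WT lysates and its footprints at 92.8% and 77.9%. In the 6 clone lysates its RNA ran from 112% to 177% of the lid median and its footprints from 83.3% to 108%.

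Within the beta ring, the ATPases and the lid, subunits were more alike in footprints than in RNA, but over all 31 constitutive subunits they were not, since the core stood further above the cap in footprints (SD of log2 density in WT 0.77 for footprints and 0.67 for RNA). The SD of log2 density within the groups, pooled over 28 subunits in WT, was 0.41 for footprints and 0.49 for RNA, and for the lid 0.24 to 0.36 against 0.36 to 0.49 over the 8 lysates. The footprint SD was below the RNA SD in 8 of 8 lysates for the beta ring, the ATPases and the lid, and in 6 of 8 for the alpha ring. The alpha ring exceptions were WT replicate 2, with an SD of 0.545 in footprints and 0.542 in RNA, and KO2 replicate 1, with 0.557 and 0.524. The lysates of a clone share the same genes and the same coding sequences, so they are not independent evidence for this order, and no test was made. Leaving out subunits with copies of 10% or more of their windows, 16 subunits remained, with an SD of 0.39 in footprints and 0.57 in RNA. RNA density and TE ran in opposite directions across the subunits, with a Pearson correlation across genes of −0.84 for the 8 lid genes and −0.56 for the 28 subunits about their group means, against 0.041 over the 9613 genes. TE contains the RNA value, which pulls such a correlation down.

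**Figure D2:**
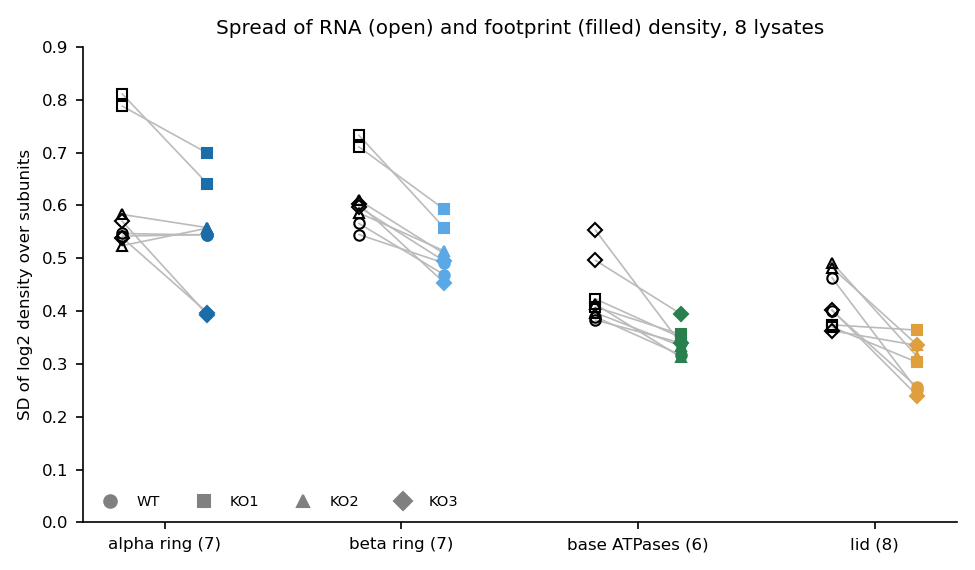
SD of log2 density over the subunits of a group, for RNA (open symbols, left) and footprints (filled symbols, right), with 1 line for each of the 8 lysates and a symbol shape for each cell line. Lines fall from RNA to footprints in all 8 lysates for the beta ring, the ATPases and the lid, and in 6 of 8 for the alpha ring.

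The inducible core subunits were far below the constitutive subunits that they replace. In WT, footprint densities were 92.5 ± 10.1 for Psmb8 against 847 for Psmb5, 21.0 ± 4.46 for Psmb9 against 1304 for Psmb6, and 184 ± 15.5 for Psmb10 against 1470 for Psmb7. Psmb8 thus made up 9.31% and 10.4% of the footprint density of the pair Psmb8 and Psmb5, Psmb9 1.81% and 1.35% of its pair, and Psmb10 11.6% and 10.7% of its pair. The Psmb8 share carries the limit on copied windows of Psmb5. The Psmb9 share rests on 18 and 9 footprint counts of Psmb9.

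Among the regulators Psme3, the nuclear activator, had the highest footprint density, 551 ± 28.3, nearly equal to its RNA density of 551 ± 4.68. Psme4, the longest member with 1834 counted codons, had the lowest, 61.9 ± 5.07, and the lowest TE of all subunits, −0.93. Psme1 and Psme2, partners in the interferon-inducible activator ring, had 297 ± 23.4 and 280 ± 3.12 in footprints from RNA densities of 190 ± 9.09 and 290 ± 2.89. The values of Psme2 depend on how reads shared with its copy Psme2b were handled, since 78.2% of its 30-base windows have a copy elsewhere. Of the assembly factors, Psmg3 stood highest at 503 ± 113 in footprints and had the highest TE, 0.82, Psmg1 lowest at 144 ± 5.83, and Psmg4 had the lowest TE, −0.42.

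Psme2b had a TE of 3.00, the highest of all members, which could not be assigned to it. Its coding sequence has a single exon on chromosome 11, while that of Psme2 has 11 coding exons on chromosome 14, and the 2 sequences are identical at 712 of 717 bases. The stretch of coding bases 406 to 555 (counted from 1 at the start codon, GRCm38) holds 3 of the 5 differences, C489T, C519T and C543T with the Psme2 base first, shown in capitals. In Psme2 it spans chr14:55587738-55588467 on the minus strand over 3 exon junctions, and in Psme2b chr11:48945564-48945713 on the minus strand. A footprint between these bases has the same sequence in either gene, and 517 of 661 windows of 30 coding bases are shared:
Psme2: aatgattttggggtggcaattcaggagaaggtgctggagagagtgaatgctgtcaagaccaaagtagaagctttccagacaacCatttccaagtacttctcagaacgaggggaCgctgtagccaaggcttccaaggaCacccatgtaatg
Psme2b: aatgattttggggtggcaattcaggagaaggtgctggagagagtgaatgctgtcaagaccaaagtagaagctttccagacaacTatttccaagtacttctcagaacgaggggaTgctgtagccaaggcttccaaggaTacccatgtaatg

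RNA of the proteasome genes moved differently in each clone. By edgeR's quasi-likelihood test with Benjamini-Hochberg adjustment over all genes, called below 0.05, KO1 had 27 members higher and 6 lower of 48, where 22.1% and 24.6% of all genes were called higher and lower (46.7% in all). KO2 had 4 higher and 2 lower, where 11.6% and 8.84% of all genes were called (20.4% in all). KO3 had 11 higher and 9 lower, where 23.1% and 22.3% of all genes were called (45.4% in all). The median log2 change over the members was 0.15, −0.06 and −0.05 for KO1, KO2 and KO3, beside a median over all genes of 0.00 in each clone. Of the 31 constitutive subunits, KO1 had 17 higher and 5 lower, KO2 had 2 and 2, and KO3 had 7 and 6. Only Psmb8 was called higher in all 3 clones, and no member was called lower in all 3, where 0.807% and 0.886% of all genes were called higher and lower in all 3. RNA of 43 of the 48 members differed between the clones in a test that left WT out (F test over the 3 clones), where 73.6% of all genes did. Without WT replicate 1 the RNA count of KO1 was 21 in place of 33, without WT replicate 2 that of KO3 was 12 in place of 20, and that of KO2 ranged from 3 (without either WT replicate) to 10 (without KO2 replicate 1) in place of 6, and DESeq2 called 3 in KO2. The p-values rest on 2 samples of each line, which the methods call biological replicates.

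In KO1 the largest rises after that of Psmb8 were those of Psmd10, Psme2b with Psme2, and Psmb4. Psmd10, an assembly chaperone also known as gankyrin, had 30.7 and 30.2 CPM in WT RNA and 54.7 and 49.4 in KO1. It rose by 0.77 ± 0.10 (log2, SE; adjusted p = 2.08e-09, edgeR). Psme2 had 67.1 and 66.2 CPM in WT and 113 and 107 in KO1, a rise of 0.72 ± 0.07 (adjusted p = 3.43e-12, edgeR), and Psme2b, the copy whose reads could not be separated from it, also gave 0.72, with 5.37 and 7.84 CPM in WT and 10.3 and 11.6 in KO1. Psmb4 had 396 and 422 CPM in WT and 615 and 567 in KO1, a rise of 0.53 ± 0.05 (adjusted p = 7.63e-14, edgeR). In each of them the KO1 libraries lay above both WT libraries.

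The falls in KO1 reached subunits of several parts of the particle. Psmd13 of the lid had 180 and 178 CPM in WT RNA and 134 and 134 in KO1, and fell by 0.42 on the log2 scale (SE 0.06, adjusted p = 5.53e-08, edgeR). Psmc4 of the ATPase ring had 189 and 190 CPM in WT and 139 and 146 in KO1, and fell by 0.41. Psmg1, a chaperone of the alpha ring, had 36.8 and 32.9 CPM in WT and 25.8 and 25.4 in KO1, and fell by 0.45. None of these overlapped WT. Psma1, Psma4 and Psmd8 also fell, by 0.39, 0.24 and 0.25.

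In KO3 Psmg1 went the other way, with 58.1 and 48.9 CPM, a rise of 0.62 ± 0.10 (adjusted p = 7.14e-08, edgeR). Psmc3 of the ATPase ring had 173 and 180 CPM in WT and 241 and 232 in KO3, a rise of 0.42 ± 0.06. Psmd3 of the lid had 289 and 294 CPM in WT and 217 and 228 in KO3, and fell by 0.39. The KO3 libraries lay outside the WT range for each of these genes. Psme1 fell by 0.33 and Psmd5, a base chaperone, by 0.29, both of which had risen in KO1, by 0.45 and 0.19. DESeq2 called neither the fall of Psme1 nor the rise of Psmd5.

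KO2 had the fewest calls. Psma3 had 175 and 181 CPM in WT RNA and 156 and 143 in KO2, and fell by 0.25. Psmc1 had 166 and 177 CPM in WT and 146 and 147 in KO2, and fell by 0.23. Both genes rose in KO3, by 0.22 and 0.29. Psmd1 rose by 0.19 and Psmd8 by 0.16 in KO2, and the other 2 calls were Psmb8 and Psmb9. DESeq2 did not call Psmd1, Psmd8 or Psmb9.

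Footprints followed RNA. KO1 had 16 members called higher and 3 lower, where 11.7% and 15.2% of all genes were (26.9% in all). KO2 had 3 higher and 4 lower (all genes 6.74% and 4.99%, 11.7% in all), and KO3 7 higher and 8 lower (all genes 14.9% and 15.7%, 30.6% in all). Footprints of 41 of 48 members differed between the clones, where 59.5% of all genes did. For KO1, KO2 and KO3, 18, 4 and 12 members were called in both RNA and footprints, and each of them had the same direction in both. Of all genes, 23.6%, 9.14% and 26% were called in both, with the same direction in 99.87%, 99.89% and 99.81% of them. Across the 48 members the log2 changes in RNA and footprints had a Pearson correlation of 0.90, 0.87 and 0.89 in the 3 clones, against 0.87, 0.77 and 0.90 across all genes. These pairs share a lysate and are given as a description. DESeq2 called 9, 1 and 5 members in footprints. Without WT replicate 1 or KO1 replicate 1 the KO1 count was 11 or 10 in place of 19, and without WT replicate 2 that of KO2 was 3 in place of 7.

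**Figure D3:**
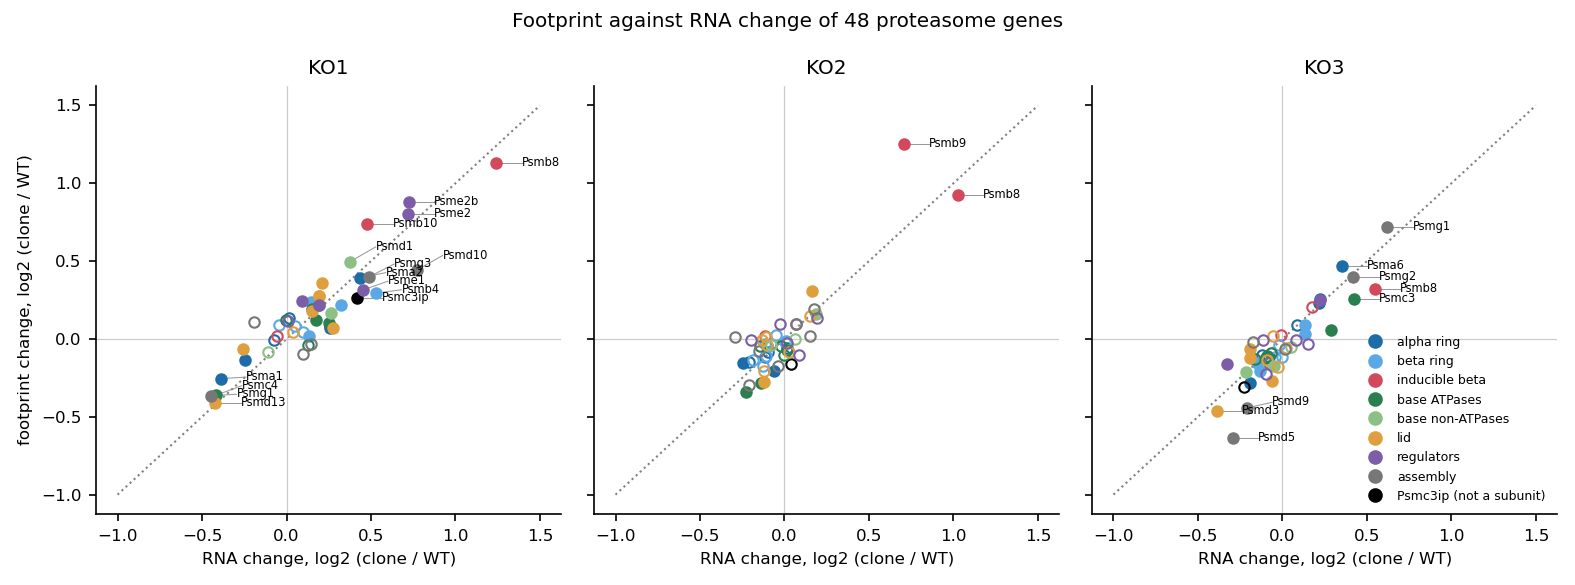
Log2 change of footprints against log2 change of RNA in each clone for the 48 proteasome genes, coloured by group; filled points were called in RNA, footprints or both. Points lie along the diagonal of equal change (dotted). In KO1 they run from Psmd13, the lowest in footprints (RNA −0.42, footprints −0.41), to Psmb8 (RNA 1.24, footprints 1.13).

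Some footprint changes were larger than those of RNA, although none of the genes named here was called for TE. Psmd1 of the base had 341 and 356 CPM in WT footprints, 484 and 505 in KO1 and 299 and 301 in KO3. Its footprints rose by 0.50 ± 0.07 in KO1, against 0.38 in RNA. In KO3 its footprints and its RNA both fell by 0.21. Psmd5 had 79.4 and 79.8 CPM in WT and 52.1 and 49.8 in KO3, and fell by 0.64, while its TE change of −0.34 was not called. Psmd9, another base chaperone, fell by 0.44 in KO3, against 0.21 in RNA. In the same clone Psma6 rose by 0.47 and Psmg1 by 0.72, against 0.35 and 0.62 in RNA. Psmg2 footprints rose there by 0.40, slightly less than its RNA, which rose by 0.42. Psmd3 fell in KO2 and KO3, by 0.27 and 0.46, and rose by 0.36 in KO1. In KO2, Psmc1 and Psmc3 of the ATPase ring fell by 0.34 and 0.28 and Psmd8 rose by 0.31. The RNA of Psmc3 and Psmd3 was not called in KO2. DESeq2 did not call the footprint changes of Psmc1, Psmc3, Psmd3 and Psmd8 in KO2, nor those of Psmd1, Psmd9 and Psmg2 in KO3.

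No member was called for TE in any clone by edgeR's interaction of line and assay, where 0.0942%, 0.0173% and 0.104% of all genes were called in KO1, KO2 and KO3. At an unadjusted p under 0.05 there were 3, 0 and 2 members, and DESeq2 called 0 in each clone. TE did not differ between the clones for any member, where 0.913% of all genes were called. RNA and footprint libraries of a replicate come from 1 lysate, and with a term for the lysate 1 member was called, Psmb4 in KO1. Its TE was 0.28 and 0.27 in WT and 0.02 and 0.03 in KO1, a change of −0.23 ± 0.08 without the lysate term (adjusted p = 0.547, edgeR) and −0.24 ± 0.07 with it (adjusted p = 0.0448, edgeR). Psmb4 footprints rose by 0.29, less than its RNA. The lowest and highest TE changes of the 48 members were −0.32 and 0.31 for KO1, −0.21 and 0.56 for KO2, and −0.34 and 0.17 for KO3. The 0.56 was that of Psmb9, with an SE of 0.42 and only 18 and 9 footprint counts in WT.

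In KO1 and KO3 the changes in RNA ran along with those of neighbouring genes. Among chromosomes that hold a member, the median log2 RNA change of the other genes was −0.44 on chromosome 7, −0.36 on chromosome 9 and −0.33 on chromosome 16 in KO1, 0.28 on chromosome 1, 0.26 on chromosome 8 and −0.20 on chromosome 12 in KO2, and 0.33 on chromosome 12, 0.32 on chromosome 18 and 0.22 on chromosome 8 in KO3. On chromosome 7 in KO1, 63.99% of the other genes were called lower and 4.31% higher. All 4 members on chromosome 7, Psma1, Psmc4, Psmd8 and Psmd13, fell in KO1, and the remaining 2 falls were Psma4 on chromosome 9 and Psmg1 on chromosome 16. The 3 members on chromosome 12, Psma3, Psma6 and Psmc1, all rose in KO3, and 2 of them fell in KO2. Psmg1 fell in KO1, where the genes within 5 Mb had a median of −0.33, and rose in KO3, where they had a median of 0.32. Some members changed less than their neighbours, or against them. On chromosome 8, Psmb10 changed by −0.12 in KO2 and −0.01 in KO3 and Psmd7 by 0.15 and 0.02, none of them called, and Psmd2 on chromosome 16 changed by −0.11 in KO1 (not called), where its neighbours had a median of −0.43.

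Over the 48 members, the RNA change and the median change of the genes within 5 Mb (members left out) had a Pearson correlation of 0.64, 0.22 and 0.68 for KO1, KO2 and KO3, and a Spearman correlation of 0.55, 0.30 and 0.63. Over all other genes tested the Pearson correlations were 0.28, 0.24 and 0.24 and the Spearman correlations 0.40, 0.39 and 0.40. Members close to each other share neighbours, so these are descriptions. Of the members called in RNA, 32 of 33, 3 of 6 and 17 of 20 had the sign of their neighbours, against 73.6%, 76.7% and 72.8% of all other genes called. Footprint changes gave correlations of 0.57, 0.15 and 0.67, and TE changes −0.20, 0.03 and −0.13. The SD of the RNA changes over the members was 0.33, 0.22 and 0.22 in the 3 clones, and 0.25, 0.22 and 0.16 once the median of the neighbours was taken off. The part of chromosome number or of any regional difference in these changes was not tested, since the libraries hold no DNA.

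**Figure D4:**
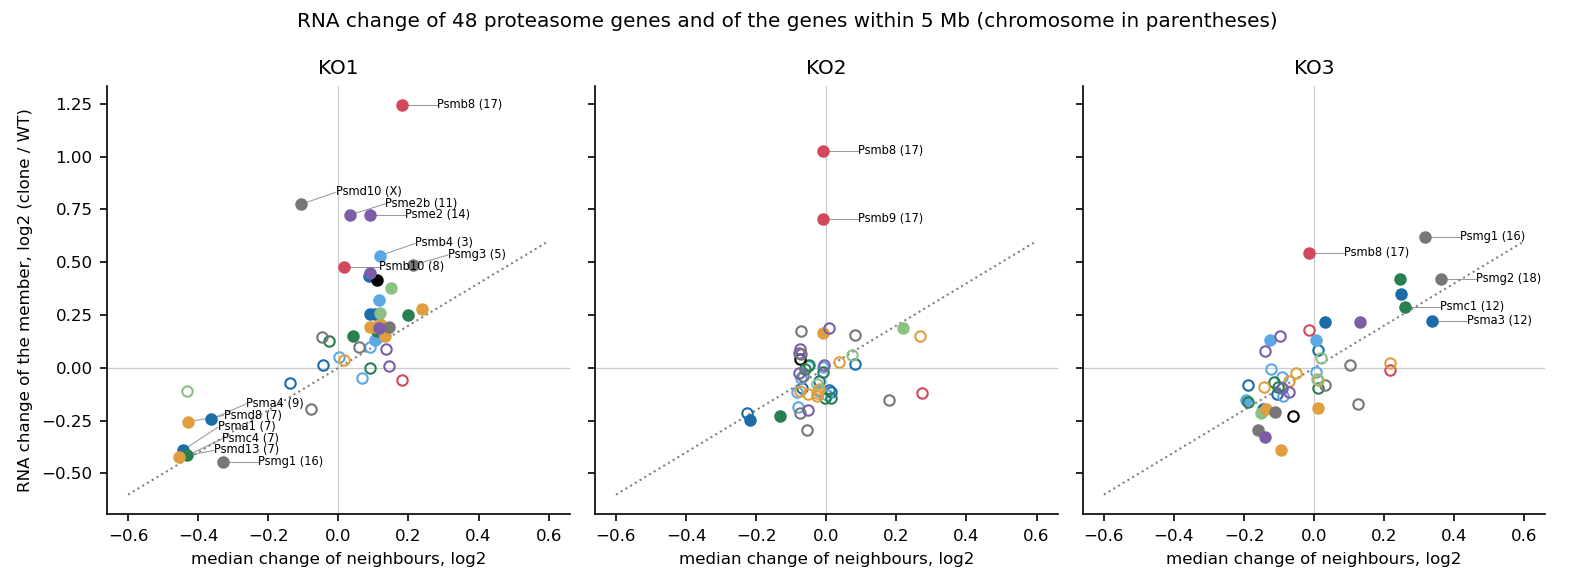
Log2 RNA change of each proteasome gene against the median log2 RNA change of the other genes within 5 Mb, in each clone; filled points were called, and labels give the chromosome. The called falls of KO1 lie at neighbour medians between −0.45 and −0.33, the called chromosome 12 and 18 genes of KO3 at 0.25 to 0.36, and Psmb8 stands above its neighbours in all 3 clones.

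Psmb8 rose in RNA of all 3 clones. It had 15.3 and 16.1 CPM in WT RNA. KO1 had 38.1 and 36.3 CPM, KO2 29.5 and 34.3, and KO3 22.9 and 22.9. Every clone library lay above both WT libraries, and KO3 stood lowest of the clones. The rises were 1.24 ± 0.12, 1.03 ± 0.13 and 0.55 ± 0.14 (log2, SE; adjusted p = 6.41e-13, 2.63e-06 and 0.000508, edgeR), they were called under every alternative run in KO3, the smallest of them, and they differed between the clones (F test, adjusted p = 2.20e-06, edgeR). The genes within 5 Mb on chromosome 17 had medians of 0.18, −0.01 and −0.01. In footprints Psmb8 had 22.8 and 26.6 CPM in WT, against 49.3 and 66.5 for KO1, 47.7 and 43.9 for KO2, and 33.9 and 26.1 for KO3. The rise was called in KO1 and KO2, 1.13 ± 0.16 and 0.92 ± 0.15, while KO3 overlapped WT with a change of 0.32 ± 0.16 (adjusted p = 0.134, edgeR). Psmb5, which Psmb8 replaces, was called in no clone in RNA or footprints. In RNA density Psmb8 went from 9.80% and 10.3% of the RNA density of the pair in WT to 20.2% and 19.4% for KO1, 19.8% and 21.2% for KO2 and 13.7% and 14.4% for KO3.

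Psmb9 and Psmb10 were each called in 1 clone. Psmb9, next to Psmb8 on chromosome 17, had 4.003 and 3.83 CPM in WT RNA and 5.99 and 6.75 in KO2, a rise of 0.71 ± 0.24 (adjusted p = 0.0416, edgeR), and its footprints rose there by 1.25 ± 0.31. Neither call held with DESeq2, and the RNA call was also lost with all libraries in 1 fit. The footprint libraries held 18 and 9 counts of Psmb9 in WT and 38 and 37 in KO2. With 1 replicate left out, where the lone sample is assumed to vary like the other group, every fit kept a rise, and 3 of the 4 RNA fits and 1 of the 4 footprint fits lost the call in this smaller design. In KO1 its RNA had 2.34 and 5.26 CPM, on both sides of WT, and in KO3 4.36 and 4.51. Psmb10 had 41.4 and 39.0 CPM in WT RNA and 61.5 and 50.4 in KO1, a rise of 0.48 ± 0.09, and its footprints rose there by 0.74 ± 0.12. In KO2 and KO3 its changes in RNA were −0.12 and −0.01 and were not called. Psme1 and Psme2 rose together in KO1, in RNA by 0.45 and 0.72 and in footprints by 0.31 and 0.80. In KO3 Psme1 RNA fell by 0.33 with a Psme2 change of 0.08, and neither was called in KO2. Psmb7 rose in KO1 by 0.32 and fell in KO3 by 0.15, and Psmb6 rose by 0.13 in both. DESeq2 did not call the changes of Psmb6, the KO3 change of Psmb7 or the footprint rise of Psme1.

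**Figure D5:**
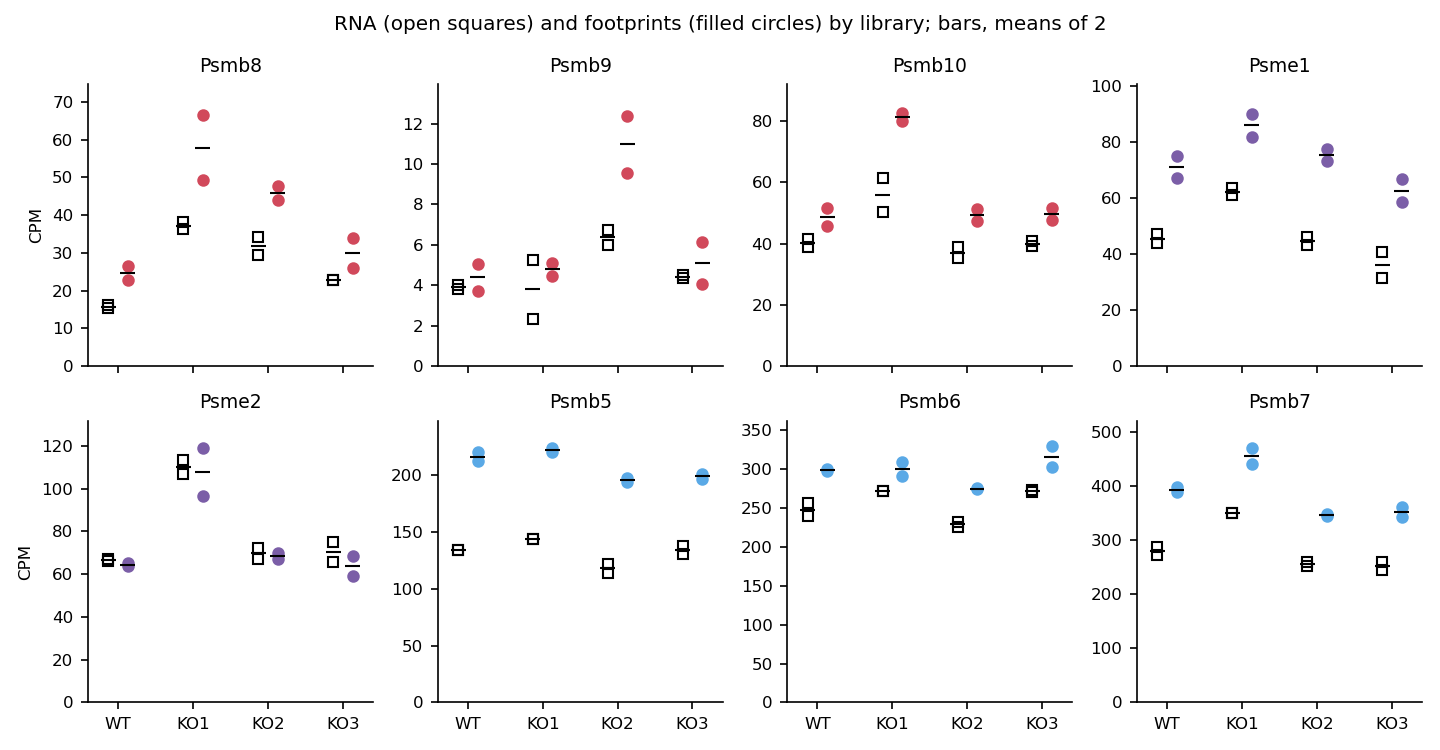
CPM of 8 genes in each library, with RNA as open squares, footprints as filled circles and a short bar at the mean of 2 replicates; each panel starts at 0. Psmb8 is above WT in RNA of all 3 clones, Psmb9 in KO2, and Psmb10, Psme1 and Psme2 in KO1, while Psmb5, Psmb6 and Psmb7 are drawn on higher scales.

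Other genes of interferon response and antigen presentation were read from a list of 15. In KO1 RNA, 4 of the 12 tested rose and 0 fell. In KO2, 3 of 11 rose and 0 fell, while KO3 had 5 of 12 that rose and 2 that fell. The shares of all genes called higher and lower in RNA were 22.1% and 24.6% for KO1, 11.6% and 8.84% for KO2, and 23.1% and 22.3% for KO3, and nothing particular to the list is read from its counts. H2-D1, an MHC class I heavy chain, was the single gene of the list called in 1 direction in all 3 clones. It rose by 0.43, 0.14 and 0.42, and the rise in KO2 lay at the threshold (adjusted p = 0.0495, edgeR). H2-K1, another class I heavy chain, had 4 and 2 RNA counts in WT against 330 and 193 footprint counts. Whether reads that fit several class I genes entered the values of H2-D1, or the sums of the list, was not tested. Tap1, the peptide transporter gene beside Psmb9, rose by 0.53 in KO1 and 0.71 in KO3, and Tap2 by 1.20 in KO2 and 0.73 in KO3. Tapbp, which holds MHC class I to the transporter, rose by 1.58 in KO1, and Irf1, an interferon-induced transcription factor, by 0.72. In KO3, where Psmb8 rose, both fell, by 0.35 and 0.41, and in KO2 both changed by −0.03. Irf9 changed by 0.08, −0.01 and −0.04 and was not called. The 15 genes summed to 1122 and 1104 CPM in WT RNA, with 1403 and 1337 for KO1, 1237 and 1207 for KO2, and 1415 and 1369 for KO3. B2m or H2-D1 was the most abundant, and the sums of all clones lay above those of WT. In the same libraries, 7 of 9 hepatocyte markers tested fell in KO1. In KO2, 1 rose and 4 fell, and in KO3, 3 rose and 5 fell. Of the leukocyte markers Csf1r rose by 2.05 in KO1, where 2 and 3 of the 8 markers were at 0, and Cd68 changed by −0.47 there (not called) and fell by 1.23 in KO3. Of the fibroblast markers Dcn changed by −0.14, −0.26 and 0.23, all called. Col1a1 rose in KO1, from 0.637 and 0.937 CPM in WT to 3.30 and 2.44, and Col3a1 rose in KO3, from 0.364 and 0.170 CPM to 4.36 and 4.10. The part of any of these differences in the Psmb8 change was not tested.

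Genes that work with the proteasome were read from 3 more lists, where 46.7%, 20.4% and 45.4% of all genes were called in KO1, KO2 and KO3. The 15 partners include the transcription factor Nfe2l1, the maturation factor Pomp, the deubiquitinase Usp14 and the subunits Adrm1 and Sem1. Of these 15, 6 rose and 2 fell in KO1 RNA. In KO2 1 rose and 3 fell, and KO3 had 6 that rose and 4 that fell. Pomp, which the beta ring needs to assemble, rose by 0.56 in KO1 and changed by −0.13 and 0.00 in the other clones. Nfe2l1, which is known to raise proteasome genes when proteolysis fails, rose by 0.20 in KO1 RNA and changed by −0.03 and −0.02 in KO2 and KO3. Its footprints were called higher in KO1, by 0.26, and lower in KO3, by 0.23, and changed by −0.01 in KO2 (not called). Of 6 ubiquitin supply genes, 1, 1 and 2 rose and 2, 0 and 2 fell in KO1, KO2 and KO3. Of 10 shuttle and p97 genes, 3, 1 and 3 rose and 2, 1 and 4 fell, Vcp among them with 0.35 in KO1 and −0.50 in KO3. No gene of these 3 lists was called in 1 direction in all 3 clones, and none was called for TE.

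Promoter sequence was read from RefSeq windows (GRCm38.p6) of 250 bases before to 50 after the start of each gene. A window follows the RefSeq start and not the transcript counted here. For Psmb8 it begins at 34197945 on chromosome 17, inside the counted transcript, which starts at 34197790, so matches in it are not upstream of that transcript. Of 42 member genes with a promoter in the table, 6 hold TGACNNNGC, the core of the element bound by Nfe2l1 and its relatives (Psmb5, Psmb6, Psmc6, Psmd9, Psmd12 and Psme4). This is 14.3% of the members, against 14% of 27025 genes and 17% of those measured in WT. CCGGAAG, the core of ETS sites, is in 15 of the 42, against 9.93% and 23.3%. GGGCGG is in 23, against 38.2% and 71.9%, CCAAT in 15, against 41.1% and 43.3%, and TATAAA in 4, against 15.7% and 7.97%. The core that interferon response factors bind, GAAA and a further GAAA 2 bases after it, is in 5 (Psmb3, Psmd4, Psmd9, Psme1 and Psmg4), against 3.99% and 3.52%. The motifs were sought on both strands and can overlap, and a match is a run of letters, not a bound site.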

How the data were processed

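Per the methods, the authors trimmed reads with fastp 0.21.0, removed those matching noncoding RNA, aligned the rest to mm10 with STAR 2.7.0a (GENCODE vM23), and assigned reads to codons by the A-site, leaving out the first and last 5 codons. The deposited values are raw counts per transcript in 16 libraries, 8 for each assay, and a read is counted on each transcript that it fits. The deposited column of counted codons gave the lengths. Here the transcript with the largest total was kept per gene (22392 genes) and tested with edgeR 4.0.16 in R 4.3.3 (filterByExpr, TMM within each assay, glmQLFit and glmQLFTest). RNA and footprints were fitted over the 4 libraries of a clone and WT, and TE as the interaction of line and assay over 8. A gene was called at an adjusted p below 0.05 over all genes. CPM were scaled by TMM. DESeq2 1.42.0, other normalizations, filters, transcripts and sample sets were alternatives. The fits were also run on counts simulated for WT and KO1, with the same dispersion for every gene and no pairing by lysate. Such counts check the code of the fits and cannot speak to the variation between replicates or clones.

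Named members were those with the highest and lowest WT footprint density or TE of each group, those called for TE, the 3 largest rises and falls among the calls of each clone and assay without overlap with WT, those called in 1 direction in all 3 clones, the 3 catalytic pairs, Psme1 to Psme4, and list genes called in all 3 clones in 1 direction. Other members and list genes named were chosen after their values were seen. The members and all gene lists were chosen with earlier results of these data known, and the comparisons with neighbouring genes, copied windows and promoter motifs were added after the values were seen. Locations came from GENCODE vM21 on GRCm38, the build of mm10, in which all 50 members matched. Replicates were paired by lysate: over 5580 genes the replicate differences of RNA and footprints correlated at 0.182 in WT and 0.227, 0.118 and 0.099 in the clones.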

Additional observations from a re-analysis of the deposited data

Results flagged for a closer look

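Named members changed in opposite directions, both called, in different clones, and the F test between the clones (edgeR, adjusted over all genes) gave the values below. Since the genes were chosen for their opposite calls, the F test is no further evidence of a difference, and 73.6% of all genes in RNA and 59.5% in footprints passed it. In RNA these were Psma3 (adjusted p = 2.89e-07), Psma5 (1.27e-07), Psmb7 (4.01e-10), Psmc1 (1.96e-08), Psmd1 (1.23e-11), Psmd12 (1.31e-06), Psmd3 (2.32e-11), Psmd5 (1.16e-05), Psmd8 (8.81e-08), Psme1 (1.03e-08) and Psmg1 (1.75e-11). In footprints they were Psmb3 (adjusted p = 4.80e-06), Psmc3 (1.67e-07), Psmd1 (1.86e-10) and Psmd3 (1.95e-12). Each group has 2 samples, so no test for an outlying sample was possible.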

How the results depend on the processing

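Of 956 repeats of the 87 called changes of named members, 812 stayed past the threshold, 144 did not, and 0 changed sign. Under every alternative, 39 of the 87 stayed past the threshold. DESeq2 gave 3 RNA calls in KO2 and 9, 1 and 5 footprint calls in KO1, KO2 and KO3. The lysate term gave 1 TE call in KO1. Leaving out 1 replicate, which leaves 1 sample in an arm that is assumed to vary like the other group, gave 21 to 31 RNA calls in KO1, 3 to 10 in KO2 and 12 to 20 in KO3, 10 to 20, 3 to 6 and 11 to 15 footprint calls, and 0 TE calls. In WT replicate 1 alone the spread was 0.416 for footprints, 0.493 for RNA and 0.360 for TE. In WT replicate 2 alone it was 0.415, 0.481 and 0.373. Over subunits of 200 or more counted codons the spread in WT was 0.396 for footprints and 0.344 for TE. Over subunits with under 10% of windows copied elsewhere, an alternative chosen after seeing the data, it was 0.385 for footprints and 0.572 for RNA. The cause was not tested. The replicate number marks no shared day in the labels. With it as a replicate block there were 36, 9 and 22 RNA calls, 22, 10 and 18 footprint calls and 0 TE calls, and the replicate differences of WT and the clones correlated at 0.251, 0.116 and 0.092 in RNA and 0.125, 0.111 and 0.069 in footprints. Every other alternative gave counts within 1.5 times those reported. The shallowest library, with 1138944 footprint counts, was that of KO1 replicate 2.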
